A study of Mus musculus with 22 samples.

Results

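The expression of 10 genes of the insulin-like growth factor (IGF) axis was examined in 22 colon tumours induced in male FVB/N mice by the carcinogen azoxymethane. The members were the named probe sets of Igf1, Igf2, Igf1r, Igf2r, Igfbp2, Igfbp3, Igfbp4, Igfbp5, Igfbp6 and Igfbp7 on Clariom S arrays, 10 of the 19505 distinct gene symbols and 22203 probe sets measured, and each was represented by 1 probe set. The tumours came from 5 formerly obese mice, which had been moved from a high-fat to a low-fat diet and received no sulindac; 6 obese sulindac mice, which ate high-fat chow (60% of kcal as fat) plus the anti-inflammatory drug sulindac; 5 obese mice eating the same chow with no sulindac; and 6 control mice eating low-fat chow (10% of kcal as fat), also with no sulindac. All tumours thus shared the strain, the sex and the carcinogen, and each was labelled with a mouse of its own, apart from an obese sulindac tumour titled Mouse_X. The labels used here give neither ages, doses nor the lengths of the diets. Levels are log2 values as deposited, so a difference of 1 is a doubling, and values of different genes cannot be ranked against each other because each comes from its own probes.

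IGF1 and IGF2 are secreted growth factors that resemble insulin. They signal through the receptor tyrosine kinase encoded by Igf1r, whereas the Igf2r product, the mannose-6-phosphate receptor, binds IGF2 and carries it to lysosomes without a kinase signal. Most of either ligand is held by secreted binding proteins, which prolong its life in the circulation and limit or direct its access to the receptor, and which proteases such as the Pappa product cut to release it. In the gut wall these ligands and binding proteins are made largely by mesenchymal cells, while epithelial cells carry the receptor.

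The whole tumour was profiled, so fewer cells of a type and less RNA per cell cannot be told apart. Array medians lay between 6.67 and 6.83, and the median correlation between arrays was 0.977. Epithelial markers averaged between 14.5 and 15.8 log2 in every tumour, and the fibroblast list, which holds genes of collagens and other matrix proteins, 9.10 to 11.2. Formerly obese Mouse_134 stood apart: its smooth muscle list averaged 11.2, against 8.52 to 10.0 in the other 21 tumours, and 40 of its probe sets lay at least 3 log2 units above every other tumour. Results that rest on it are given with and without it.

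No member passed the test between any pair of regimens or over all 4 regimens. In limma's test with Benjamini-Hochberg adjustment over all 22203 probe sets, the share of probe sets called at an adjusted p under 0.05 was 0% in each of the 6 pairs and in the F test over the 4 regimens, so these arrays called no gene of any kind at this threshold. The smallest adjusted p of a member in the F test was 0.829, for Igfbp7. Without adjustment, 6% of all probe sets had p under 0.05 in the F test and 0 of the 10 members did. The regimen accounted for 11.8% (Igf2) to 31.1% (Igfbp6) of a member's variance over the 22 tumours, against a median of 12.9% over all probe sets. The results below therefore describe values and their spread, and no member is said to have changed.

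**Figure D1:**
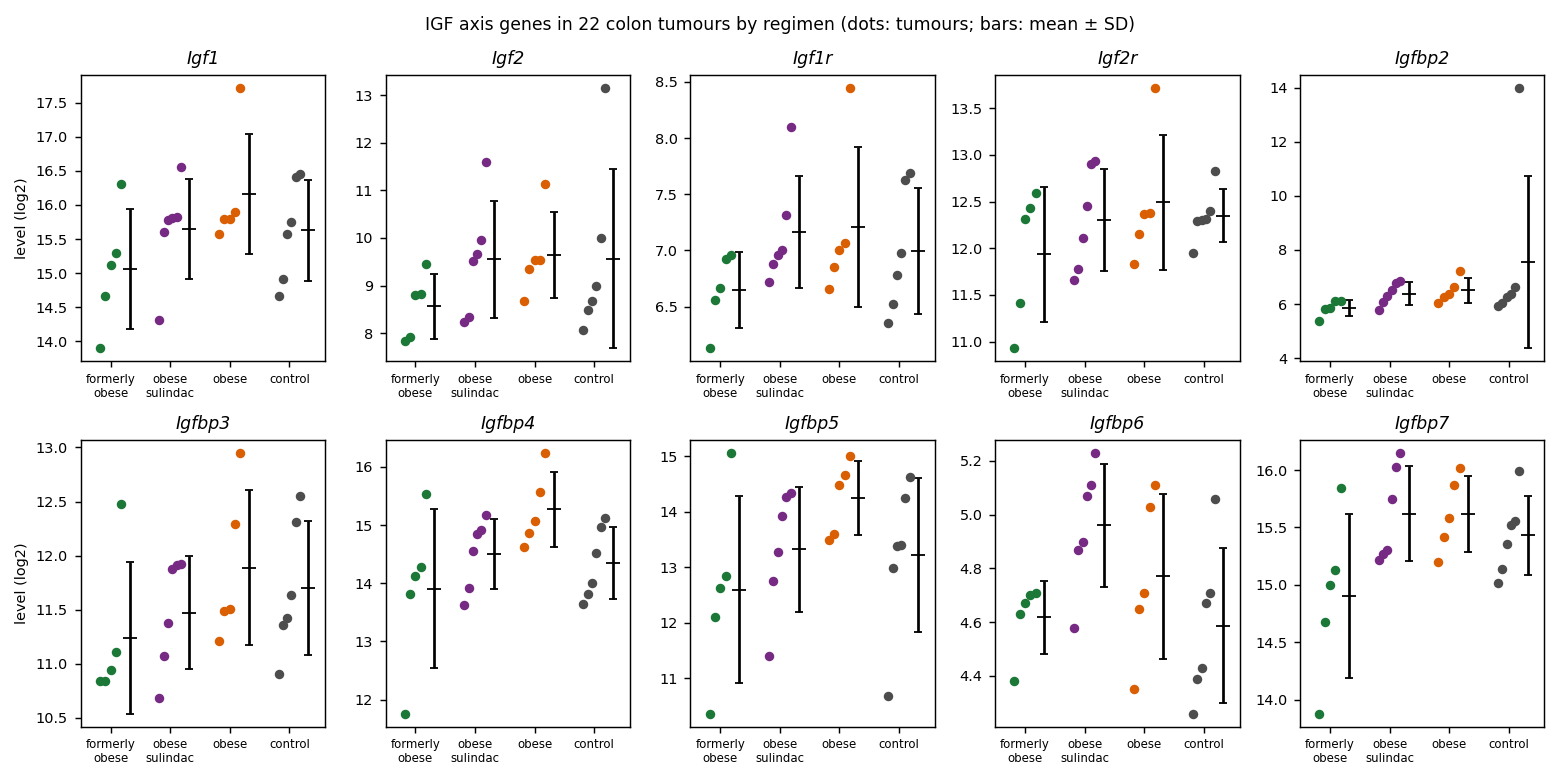
Levels of the 10 genes (log2, vertical axes, each with its own range that does not start at 0) in the 22 tumours by regimen; dots are tumours, and the bars beside them give the mean and SD. The formerly obese mean was the lowest of the 4 regimens for every gene except Igfbp6, and single tumours such as control Mouse_26 for Igfbp2, at 14.0, lay far from their group.

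The comparison of formerly obese with obese tumours asks whether the axis differed once the high-fat diet had been replaced. By their labels these mice differed in the diet at collection as well as in obesity, so the 2 cannot be told apart here. All 10 members had a lower mean in formerly obese tumours, with a median difference of -0.69 log2, where 49.1% of all probe sets were lower and their median difference was 0.0040. The binding protein genes Igfbp4, Igfbp5 and Igfbp7 and the ligand gene Igf1 had an unadjusted p under 0.05, 4 of 10 members where 5.69% of all probe sets did, and these 4 genes varied together between tumours, as shown further on. In no member were the regimens fully apart, as was the case for 0.878% of all probe sets. All 10 members stayed lower when any 1 of the 5 formerly obese or 5 obese tumours was left out. Leaving out a tumour of another regimen cannot change these differences, only their SE and p. Without formerly obese Mouse_134, however, 0 members had an unadjusted p under 0.05, without obese Mouse_113 there were 2, and without formerly obese Mouse_140 there were 5.

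Among the ligands, Igf1 measured 13.9, 16.3, 15.12, 14.67 and 15.3 log2 in the formerly obese tumours and 15.79, 15.58, 15.9, 15.79 and 17.72 in the obese tumours. In 4 of 5 formerly obese tumours it lay below every obese tumour, and the exception was Mouse_140. The difference was -1.10 ± 0.47 log2 (SE; 95% interval -2.08 to -0.11; limma p = 0.0304, adjusted p = 0.866; two-sided exact permutation p = 0.0873). It was -0.81 without Mouse_134 and -0.71 without obese Mouse_113, which held the highest Igf1 level of all tumours.

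Igf2 measured 8.81, 7.91, 8.82, 7.83 and 9.45 log2 in the formerly obese tumours and 9.54, 8.68, 9.34, 9.53 and 11.14 in the obese tumours. The ranges overlapped, with 2 formerly obese tumours below all obese ones. The difference of -1.08 ± 0.76 log2 (SE) had a 95% interval of -2.66 to 0.49 (adjusted p = 0.890; exact permutation p = 0.0873). It was -0.71 without obese Mouse_113 and -0.55 with the fibroblast list as a covariate.

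Neither receptor was separated. Igf1r, the gene of the signalling receptor, averaged 6.65 ± 0.33 log2 in formerly obese tumours and 7.21 ± 0.71 in obese ones (SD, n = 5 each), a difference of -0.56 ± 0.33 (SE; adjusted p = 0.879). It was -0.25 without obese Mouse_113, which had the highest Igf1r level, 8.45. Igf2r averaged 11.9 ± 0.72 log2 in formerly obese tumours and 12.5 ± 0.72 in obese ones (SD, n = 5 each), a difference of -0.56 ± 0.35 (SE; adjusted p = 0.885), and formerly obese Mouse_140, high in several other members, was the lowest of all 22 tumours at 10.93. The Igf2r difference was -0.31 without that tumour and -0.25 without obese Mouse_96.

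Igfbp4 encodes a binding protein that mainly holds IGFs away from their receptor until the Pappa protease cuts it. It measured 11.76, 15.54, 14.27, 13.82 and 14.12 log2 in the formerly obese tumours and 15.57, 15.07, 14.86, 14.62 and 16.24 in the obese tumours. Mouse_140 was again the only formerly obese tumour that did not lie below all obese ones. The difference, -1.37 ± 0.50 log2 (SE; 95% interval -2.40 to -0.34; limma p = 0.0119, adjusted p = 0.866; exact permutation p = 0.0556), was the one with the smallest p among the members and ranked 295 of 22203. It was -0.83 without Mouse_134, a value more than 1.5 times smaller, and -1.78 without Mouse_140.

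Igfbp5, whose product binds matrix as well as IGFs, measured 10.37, 15.06, 12.85, 12.1 and 12.62 log2 in the formerly obese tumours and 14.49, 13.49, 15.01, 13.6 and 14.66 in the obese tumours. The formerly obese tumours held both the lowest and the highest value of all 22, in Mouse_134 and Mouse_140. The difference was -1.65 ± 0.74 log2 (SE; limma p = 0.0370, adjusted p = 0.872; exact permutation p = 0.0714), or -1.09 without Mouse_134.

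Igfbp7 encodes a secreted protein of vessel walls and stroma that binds IGFs weakly. It measured 13.88, 15.84, 15.0, 14.68 and 15.13 log2 in the formerly obese tumours and 16.02, 15.2, 15.58, 15.42 and 15.87 in the obese tumours. All formerly obese tumours other than Mouse_140 lay below all obese ones. The difference was -0.71 ± 0.28 log2 (SE; 95% interval -1.30 to -0.12; limma p = 0.0201, adjusted p = 0.866; exact permutation p = 0.0635), or -0.46 without Mouse_134.

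Igfbp3, the gene of the main carrier of IGFs in blood, averaged 11.2 ± 0.70 log2 in formerly obese tumours and 11.9 ± 0.72 in obese ones (SD, n = 5 each), a difference of -0.65 ± 0.38 (SE; adjusted p = 0.879). Here 4 of 5 formerly obese tumours lay below all obese ones, between 10.84 and 11.11, and Mouse_140 reached 12.48. The difference was -0.38 without obese Mouse_96 and -0.29 with the fibroblast list as a covariate. Igfbp6, whose product prefers IGF2, lay near the lower end of the array's range at a mean of 4.74 log2, the 25.4th percentile of probe set means. It differed by -0.15 ± 0.17 (SE; adjusted p = 0.937), or by -0.067 without obese Mouse_109 and -0.26 without obese Mouse_101.

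Igfbp2 measured 5.36, 5.82, 6.12, 6.1 and 5.84 log2 in the formerly obese tumours and 6.64, 7.22, 6.36, 6.05 and 6.27 in the obese tumours, with 3 formerly obese tumours below all obese ones. The difference of -0.66 log2 had an SE of 0.99 in the fit over all regimens (adjusted p = 0.957), a fit whose shared spread includes control Mouse_26, where Igfbp2 was 14.0. Without that tumour the SE was 0.23 (adjusted p = 0.820), and the exact permutation test, which used only these 10 tumours, gave p = 0.0238.

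**Figure D2:**
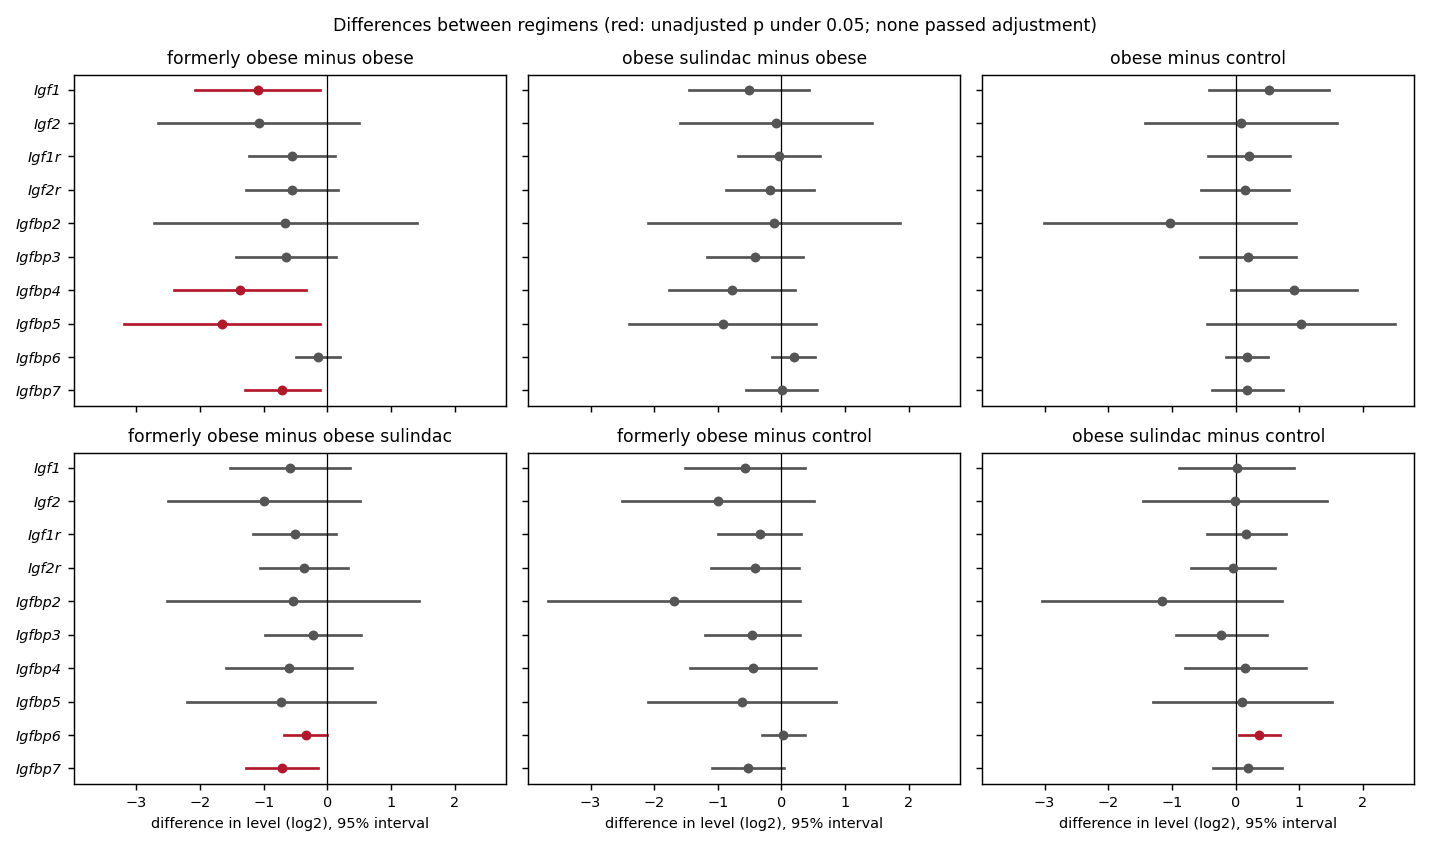
Differences in log2 level for the 6 pairs of regimens (points, with bars for the 95% interval of the limma fit); red marks an unadjusted p under 0.05, and no adjusted p was below that threshold. All 10 points lie left of 0 in formerly obese minus obese and in formerly obese minus obese sulindac tumours, and the intervals of Igfbp2 are wide in every panel.

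The mean of the fibroblast marker list was 9.89 ± 0.50 log2 in formerly obese tumours and 10.3 ± 0.23 in obese ones (SD, n = 5 each), a difference of -0.45 with a 95% interval of -1.03 to 0.13 that includes 0. The 11 measured fibroblast markers ranged from Fap, near the bottom of the array's range at a mean of 4.85, to Dcn at 15.9 log2. With that list as a covariate all 10 members stayed lower in formerly obese tumours. Igfbp4 then differed by -0.84, Igf1 by -0.59, Igfbp5 by -0.59 and Igfbp7 by -0.32 log2, and 0 members had an unadjusted p under 0.05. The endothelium list differed by -0.41 log2 (95% interval -1.04 to 0.21) and the epithelial list by 0.35 (-0.16 to 0.85). The fibroblast list was measured in the same tumours as the members, so the covariate fit cannot tell what part it had. What part any list had in the members' differences was not tested.

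Of 18 measured extracellular partners of the axis, 9 were lower and 9 higher in formerly obese than in obese tumours (median -0.014 log2), and 2 had an unadjusted p under 0.05. Pappa, the protease that cuts binding proteins, measured 9.07, 10.66, 9.61, 9.69 and 10.57 log2 in the formerly obese tumours and 11.55, 11.06, 10.69, 10.98 and 11.76 in the obese tumours, with no overlap (difference -1.29 ± 0.48 SE, adjusted p = 0.866). Ghr, the growth hormone receptor gene, measured 9.33, 9.88, 9.79, 9.03 and 9.86 log2 in the formerly obese tumours and 10.4, 9.99, 10.86, 10.18 and 10.12 in the obese tumours, again with no overlap (difference -0.73 ± 0.30 SE, adjusted p = 0.866). In both genes the nearest tumours of the regimens lay close together, and 0.878% of all probe sets had no overlap. With the fibroblast list as a covariate the difference was -0.74 for Pappa and -0.45 for Ghr. Of 38 measured genes of insulin and IGF signal transduction, 16 were lower and 22 higher (median 0.020), and 0 had an unadjusted p under 0.05. The smallest unadjusted p in that list was 0.0688.

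The same formerly obese tumours were set against the obese sulindac and the control tumours, so the 3 comparisons share their arrays. Formerly obese and obese sulindac mice differed in diet, in obesity and in sulindac, which cannot be told apart. Against obese sulindac tumours all 10 members were lower (median -0.56 log2; 49.8% of all probe sets were lower), and 2 of 10 had an unadjusted p under 0.05, where 6.62% of all probe sets did. Igfbp7 averaged 14.9 ± 0.71 log2 in formerly obese (SD, n = 5) and 15.6 ± 0.41 in obese sulindac tumours (SD, n = 6), a difference of -0.71 ± 0.27 (SE; adjusted p = 0.682), and 4 of 5 formerly obese tumours lay below all 6 obese sulindac ones. Without Mouse_134 the difference was -0.46 and 0 members had an unadjusted p under 0.05. Igfbp6 differed by -0.34 ± 0.16 (SE; adjusted p = 0.747; exact permutation p = 0.0238). The fibroblast list differed by -0.63 log2 in this pair (95% interval -1.18 to -0.072). With it as a covariate 6 of 10 members were lower, and Igf1, Igfbp3, Igfbp4 and Igfbp5 had the opposite sign. The regimens were fully apart for 0.567% of all probe sets and for 0 members.

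In the partner list Ghr was again the gene with an unadjusted p under 0.05, at -0.66 ± 0.28 log2 (SE; adjusted p = 0.708) in formerly obese against obese sulindac tumours, and -0.26 with the fibroblast list as a covariate. In the signal transduction list Map2k1, the gene of the kinase MEK1, differed by 0.39 ± 0.17 (SE; adjusted p = 0.708), and Gab1, a docking protein gene, by -0.73 ± 0.32 (SE; adjusted p = 0.712), or -0.42 without obese sulindac Mouse_X, where it was 11.17.

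Against control tumours 9 of 10 members were lower in formerly obese tumours (median -0.49 log2; 50.5% of all probe sets were lower), and 0 had an unadjusted p under 0.05, where 5.54% of all probe sets did. The median was -0.32, with 8 members lower, without Mouse_134, and -0.80, with 2 members at an unadjusted p under 0.05, without Mouse_140. The regimens were fully apart for 0.423% of probe sets and 0 members. Igfbp7 had the smallest p of the members, at -0.53 ± 0.27 log2 (SE; adjusted p = 0.907). Without Mouse_134 it was -0.27 and Igfbp4 took the opposite sign, at 0.091. Ghr differed by -0.90 ± 0.28 log2 (SE; adjusted p = 0.758), with a mean of 9.58 ± 0.38 in formerly obese (SD, n = 5) and 10.5 ± 0.70 in control tumours (SD, n = 6), and 0 genes of the signal transduction list had an unadjusted p under 0.05.

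Obese and control mice differed in the diet eaten up to collection as well as in obesity, so the 2 cannot be told apart in this comparison. The mean of 9 of 10 members was higher in obese tumours (median 0.19 log2; 50.9% of all probe sets were lower; median 0.12 without obese Mouse_113, and 0.29, 0.33 and 0.36 without obese Mouse_101, obese Mouse_109 and control Mouse_32), none had an unadjusted p under 0.05, where 4.03% of all probe sets did, and in none were the regimens fully apart, as was the case for 0.383%. Igfbp4 came nearest. It measured 15.57, 15.07, 14.86, 14.62 and 16.24 log2 in obese tumours, against 13.65 to 15.12 with a median of 14.3 in control tumours. Only obese Mouse_96 and Mouse_113 lay above all controls. The difference was 0.93 ± 0.48 log2 (SE, with a 95% interval of -0.065 to 1.92, limma p = 0.0656, adjusted p = 0.9998 and exact permutation p = 0.0476). It was 0.68 without Mouse_113 and 1.09 without obese Mouse_109. The unadjusted limma p of Igfbp4 was under 0.05 in 5 of 22 omissions of a tumour. The smallest was 0.0202, without formerly obese Mouse_134, where the SE was 0.37 and the adjusted limma p 0.9998.

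Igfbp5 differed by 1.03 ± 0.71 log2 (SE; adjusted p = 0.9998) between obese and control tumours. Without control Mouse_27, whose Igfbp5 level of 10.69 was the lowest of its group, the difference was 0.52, and with the fibroblast list as a covariate it was 0.45. Igf1 averaged 16.2 ± 0.88 log2 in obese (SD, n = 5) and 15.6 ± 0.74 in control tumours (SD, n = 6), a difference of 0.53 ± 0.45 (SE) that was 0.14 without obese Mouse_113. Igfbp2 was the member with the opposite sign, at -1.03 ± 0.95 log2 (SE), and differed by 0.26 once control Mouse_26 was left out. In the partner list 9 genes were higher and 9 lower, with 0 at an unadjusted p under 0.05. In the signal transduction list 13 were higher and 25 lower, and Rptor, a subunit gene of the kinase complex mTORC1, differed by -0.48 ± 0.21 (SE; adjusted p = 0.9998). Mtor, the gene of that complex's kinase, had levels without overlap between obese and control tumours, at -0.34 ± 0.20 log2 (SE; unadjusted p = 0.0944); it was named for this separation after its values were seen.

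Sulindac in obese mice was compared with no drug on the same diet. In obese sulindac tumours 8 of 10 members were lower (median -0.15 log2; 48.3% of all probe sets were lower), 0 had an unadjusted p under 0.05, where 6.55% of all probe sets did, and 0 were fully apart, where 0.676% were. Leaving out single tumours moved the number lower between 6, without obese Mouse_113, and 9, and the median between -0.13, without obese Mouse_96, and -0.30, without obese sulindac Mouse_125. With the fibroblast list as a covariate 9 were lower and 2 members, Igfbp4 and Igfbp5, had an unadjusted p under 0.05. The 6.55% is from the fit without the covariate. The share of all probe sets in the covariate fit is not given here, so this count of 2 cannot be set against it. Igfbp4 ranged from 13.62 to 15.17 log2 with a median of 14.7 in obese sulindac tumours, against 14.62 to 16.24 in obese tumours. The difference of -0.77 ± 0.48 (SE) had a 95% interval of -1.76 to 0.22 (adjusted p = 0.830; exact permutation p = 0.0866). Igfbp5 differed by -0.93 ± 0.71 (SE; adjusted p = 0.870), by -0.54 without obese sulindac Mouse_X, and by -1.35 ± 0.43 with the fibroblast list as a covariate (SE; adjusted p = 0.535). Igfbp7 differed by 0.0020 ± 0.27 (SE), with an interval of -0.56 to 0.57, so a difference of that size in either direction is not excluded.

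Among the partners of the axis in the sulindac comparison, Igfals, the gene of the acid-labile subunit that stabilises IGF complexes in blood, differed by -1.16 ± 0.48 log2 (SE; adjusted p = 0.719). That value came mainly from obese Mouse_113, at 8.42 against 4.46 to 4.80 in the other obese tumours, and was -0.40 without it. Igf2bp3, an RNA-binding protein gene, differed by 0.89 ± 0.40 (SE; adjusted p = 0.738), or 0.42 when obese sulindac Mouse_131, at 8.33, was left out. Map2k1 differed by -0.38 ± 0.17 (SE; adjusted p = 0.737).

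Obese sulindac and control mice differed in diet, in obesity and in sulindac, which cannot be told apart. Between their tumours, in obese sulindac against control, 6 members were higher and 4 lower (median 0.059 log2, with 49.7% of all probe sets lower). That direction was not stable: the median ran from -0.087 without control Mouse_27 to 0.30 without control Mouse_32, and with the fibroblast list as a covariate it was -0.40 with 7 of 10 lower. Igfbp6 alone had an unadjusted p under 0.05, 1 of 10 members where 6.63% of all probe sets did. It ranged from 4.58 to 5.23 log2 with a median of 4.99 in obese sulindac tumours, against 4.26 to 5.06 with a median of 4.55 in control tumours, and 3 of 6 obese sulindac tumours lay above all controls. Without control Mouse_20, control Mouse_26 or obese sulindac Mouse_131, 0 members had an unadjusted p under 0.05. The difference was 0.37 ± 0.15 (SE; 95% interval 0.056 to 0.69; adjusted p = 0.707; exact permutation p = 0.0411), at a level near the bottom of the array's range. The regimens were fully apart for 0.297% of probe sets and for 0 members. In the signal transduction list Inpp5d, a phosphatase gene of blood cells, differed by 0.95 ± 0.36 (SE; adjusted p = 0.700), and 0 of 18 partners had an unadjusted p under 0.05.

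**Figure D3:**
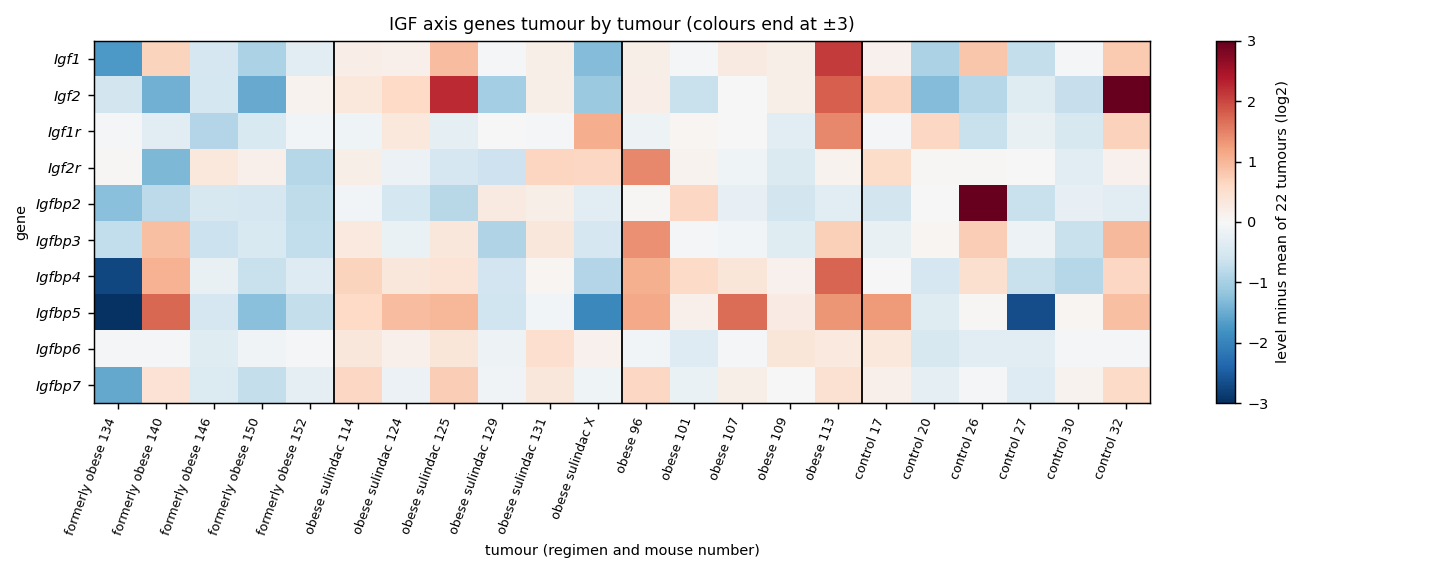
Level of each gene minus its mean over the 22 tumours (log2, colour scale ending at ±3), one column per tumour grouped by regimen, with formerly obese at the left and control at the right. Formerly obese Mouse_134 is low and obese Mouse_113 high in several genes at once, and the darkest red squares are the Igfbp2 of control Mouse_26 and the Igf2 of control Mouse_32.

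Tumours of the same regimen differed widely in most members. The SD within regimens was 1.71 log2 for Igfbp2, 1.30 for Igf2 and 1.27 for Igfbp5, all above the 97th percentile of probe sets, against a median of 0.348 over all probe sets. The Igfbp2 value rested on control Mouse_26 and was 0.375 without it, and that of Igf2 was 0.934 without control Mouse_32. It was 0.251 for Igfbp6, at the 17.5th percentile. Formerly obese Mouse_134 held the lowest level of all 22 tumours in 5 members, Igf1, Igfbp2, Igfbp4, Igfbp5 and Igfbp7. Obese Mouse_113 held the highest in 3, Igf1, Igf1r and Igfbp4, and obese Mouse_96 the highest Igf2r (13.72) and Igfbp3 (12.95).

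Once the regimen means were removed, 8 of the 45 pairs of members correlated over the 22 tumours at an adjusted p under 0.05 (Pearson r, 100000 permutations of tumours within regimens, Benjamini-Hochberg over the 45 pairs). All 8 were positive and joined Igf1, Igfbp3, Igfbp4, Igfbp5 and Igfbp7. Igf1 and Igfbp4 had r = 0.83 and Spearman rho = 0.84 (permutation p = 1e-05, the smallest that can be given; adjusted p = 0.00045). Leaving out obese Mouse_113 and obese sulindac Mouse_X, the tumours farthest from the median of Igf1, left r at 0.82. Igfbp4 and Igfbp7 had r = 0.84 (rho = 0.74; permutation p = 0.00031, adjusted p = 0.0027), which was 0.66 without formerly obese Mouse_134 and Mouse_140. Igfbp5 correlated with Igfbp7 at r = 0.79 and with Igfbp4 at 0.79, and the lowest r of either when any 1 tumour was left out was 0.72.

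Igf1 correlated with Igfbp5 at r = 0.75 and with Igfbp7 at 0.74 (adjusted p = 0.0027 each by permutation). Igfbp3 was tied to Igfbp4 (r = 0.73, adjusted p = 0.00296 by permutation) and Igfbp7 (r = 0.68, adjusted p = 0.00894 by permutation). Its pairs with Igf1 (r = 0.57) and Igfbp5 (r = 0.53) had adjusted permutation p of 0.0586 and 0.0865. Igf2, Igf1r, Igf2r, Igfbp2 and Igfbp6 were in 0 of the 8 pairs. The nearest of these was Igf1 with Igf2, at r = 0.54 (adjusted p = 0.0511 by permutation). By Spearman's rho, Igf1 with Igf2 (0.55) and Igf2 with Igfbp6 (0.59) had adjusted permutation p of 0.0461 and 0.0443. The receptor gene Igf1r had r = 0.0026 with Igf1, and ranged over single omissions from -0.45 to 0.24. The lowest r of the 45 was -0.38, for Igf1 with Igf2r (adjusted p = 0.293 by permutation). The correlated genes share each tumour's array and cell composition.

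**Figure D4:**
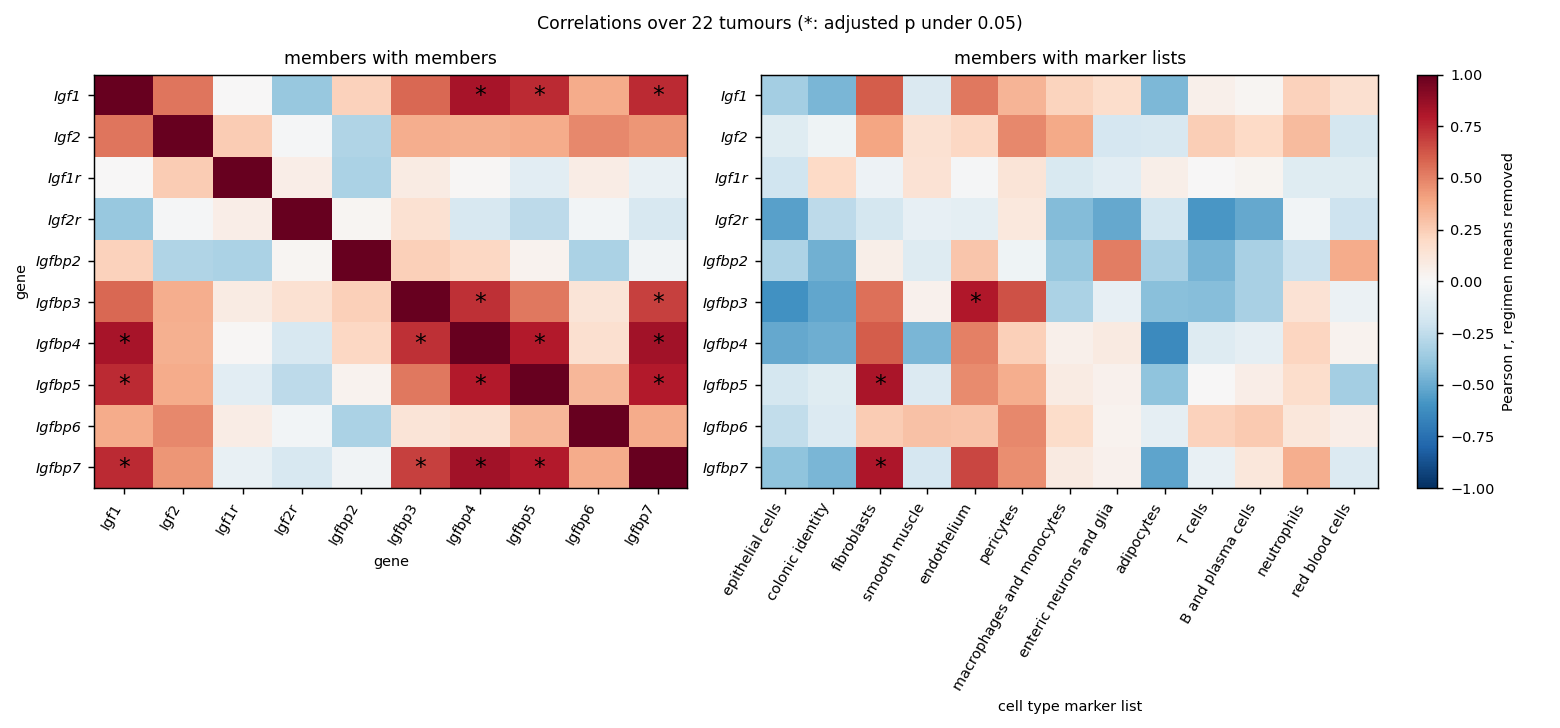
Pearson r over the 22 tumours with regimen means removed, between the members (left) and between the members and 13 cell type marker lists (right); red is positive, blue negative, and asterisks mark an adjusted p under 0.05. The 8 marked pairs at the left join Igf1, Igfbp3, Igfbp4, Igfbp5 and Igfbp7, and 3 of 130 pairs are marked at the right.

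Other genes were ranked by the same r, with predicted genes and Riken clones left out, which left 18541 named genes. Igf1, Igfbp4, Igfbp5 and Igfbp7 each stood among the 42 genes most like each of the others. Igfbp3 ranked between 28 and 683 in its pairs with them. Igfbp7 was the gene most like Igfbp4, followed by Sparc, the gene of a collagen-binding matrix protein (r = 0.83), and Igf1. Without formerly obese Mouse_134 that order did not hold, with r of 0.74 for Igfbp7, 0.82 for Sparc and 0.83 for Igf1. For Igfbp7 the most alike were Bgn, the gene of the matrix proteoglycan biglycan (r = 0.95), Sparc (0.91) and the collagen gene Col1a2 (0.88). For Igfbp5 they were the basement membrane collagen gene Col18a1 (0.87), Sparc (0.86) and Pdpn, the podoplanin gene (0.86). For Igf1 they were Tspan6, Hsd11b1, the gene of a glucocorticoid-activating enzyme, and Lox, that of the collagen cross-linking enzyme lysyl oxidase, at r of 0.89, 0.89 and 0.86. For Igfbp3 they were Cnot8, Adamts9 and Cd200, at 0.89, 0.83 and 0.83. These are descriptions over 22 tumours that share arrays and cell composition.

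For the members outside those pairs the likeness was of another kind. Igf2r was most like Gipc1 (r = 0.85), Axin2, a target and inhibitor of WNT signalling (0.81), and Zfp687 (0.80), and without obese Mouse_96 these were 0.80, 0.75 and 0.75. Igf2 was most like Clmp, AI504432 and Klhl4, with r of 0.77 to 0.78. Igf1r was most like Ccdc24, Ralgapa1 and Atp1b2, with r of 0.75 to 0.77. Igfbp6 was most like Atox1, Pcyt1b and Nsg1, with r of 0.73 to 0.77. Igfbp2 was most like the neural adhesion genes Opcml and Ntm and the phosphatase subunit gene Ppp2r2b, with r of 0.92 to 0.93. Those 3 values rested on control Mouse_26: without it they were 0.057 for Opcml, 0.15 for Ntm and -0.31 for Ppp2r2b.

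Of 130 pairs of a member with a cell type marker list, 3 had an adjusted p under 0.05. Igfbp7 correlated with the fibroblast list at r = 0.81 (rho = 0.79; permutation p = 2e-05, adjusted p = 0.0026). Igfbp5 correlated with it at r = 0.81 (rho = 0.77, permutation p = 0.00026, adjusted p = 0.0113). Without control Mouse_27 and formerly obese Mouse_140 this r was 0.60, with a permutation p of 0.0198 before adjustment. Igfbp3 correlated with the endothelium list at r = 0.80 (permutation p = 0.00018, adjusted p = 0.0113), although by Spearman's rho, 0.67, the adjusted permutation p was 0.0767. Igfbp7 with the endothelium list, at r = 0.67, had an adjusted permutation p of 0.106, but by rho, 0.72, it was 0.0394. Igf1 and Igfbp4 had r = 0.61 each with the fibroblast list (adjusted p = 0.106 by permutation), and Igf1r had r = -0.051 with it. Igfbp3 had r = -0.61 and Igfbp4 r = -0.51 with the epithelial list (adjusted p = 0.106 by permutation for each). At the same adjusted p, Igfbp3 had r = 0.63 with the pericyte list and Igfbp4 r = -0.64 with the adipocyte list. The value with the adipocyte list was -0.45 without control Mouse_20 and formerly obese Mouse_134. In that list Adipoq, Lep, Plin1, Plin4 and Retn lay near the bottom of the array's range, at means of 4.28 to 4.82 log2. Pparg was its brightest gene, at a mean of 11.17 and a range of 7.63 to 13.27. The list mean therefore cannot be read as a measure of adipocytes.

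**Figure D5:**
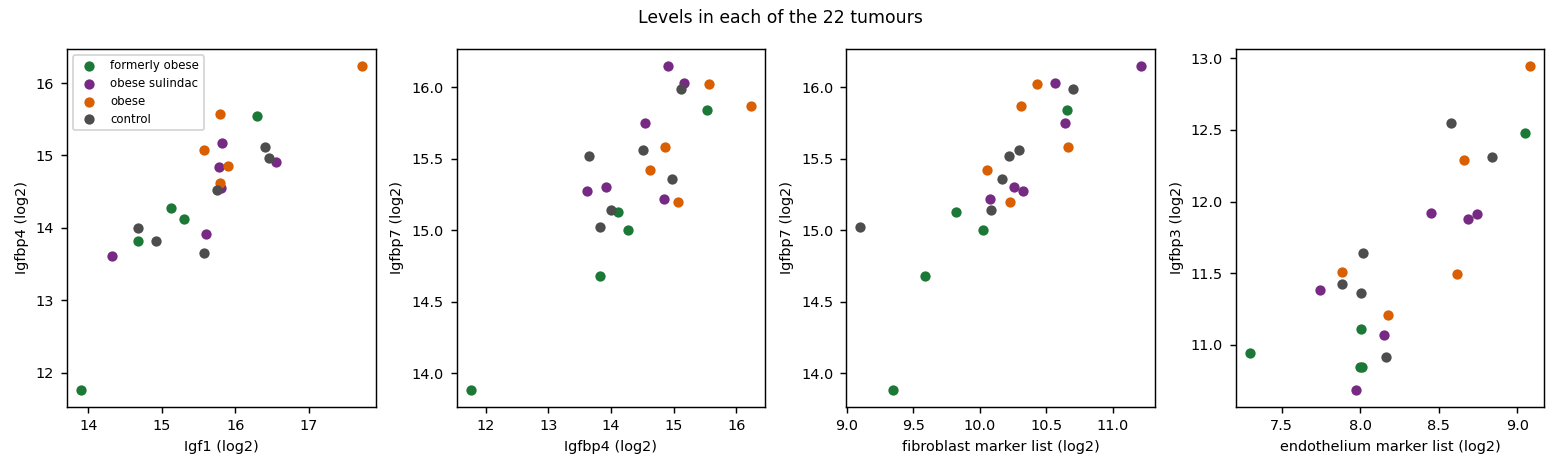
Levels (log2) in each of the 22 tumours, coloured by regimen, for Igfbp4 against Igf1, Igfbp7 against Igfbp4, Igfbp7 against the mean of the fibroblast markers and Igfbp3 against the mean of the endothelium markers. Axes do not start at 0 and regimen means are kept; formerly obese Mouse_134 is the lowest point for Igfbp4, at 11.76, and Igfbp7, at 13.88.

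Because Igf1, Igfbp3, Igfbp4, Igfbp5 and Igfbp7 varied together, the 120 bases before the start given for each in a table of RefSeq promoters are shown, 5′ to 3′ on the gene's strand, from assembly GRCm38.p6. For Igf1, Igfbp3 and Igfbp4 this start lies inside the outermost extent that RefSeq gives the gene, and other starts of these genes were not examined. A promoter entry was found for all 10 members. Capitals mark the TATA-like motifs TATAAA or its variants TTTAAA and also TATATA, and the GC box GGGCGG, each searched on both strands.

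Igf1, chr10:87860991-87861110, plus strand: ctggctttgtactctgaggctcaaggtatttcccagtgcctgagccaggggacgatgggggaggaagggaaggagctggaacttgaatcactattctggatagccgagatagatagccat
Igfbp3, chr11:7213924-7214043, minus strand: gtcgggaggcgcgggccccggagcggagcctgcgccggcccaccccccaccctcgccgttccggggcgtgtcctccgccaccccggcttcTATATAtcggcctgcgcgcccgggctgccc
Igfbp4, chr11:99041124-99041243, plus strand: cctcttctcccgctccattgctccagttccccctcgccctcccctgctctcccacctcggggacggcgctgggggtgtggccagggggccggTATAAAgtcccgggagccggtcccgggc
Igfbp5, chr1:72874866-72874985, minus strand: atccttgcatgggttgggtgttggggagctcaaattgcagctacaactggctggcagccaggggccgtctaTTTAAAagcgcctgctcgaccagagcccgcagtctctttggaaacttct
Igfbp7, chr5:77408046-77408165, minus strand: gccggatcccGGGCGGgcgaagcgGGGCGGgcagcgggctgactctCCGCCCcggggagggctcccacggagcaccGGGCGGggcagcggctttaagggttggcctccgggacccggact

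The 5 genes did not share a promoter type by these letters. A TATA-like motif stood in Igfbp4 (TATAAA, from base -28), Igfbp3 (TATATA, from -30) and Igfbp5 (TTTAAA, from -49), in 3 of the 5 windows, while 12.5% of 32844 mouse promoter windows of this length held any of the 3 motifs. Taken singly, TATAAA stood in 6.34%, TTTAAA in 5.2% and TATATA in 2.51%. Igfbp7 held 4 GC boxes and no TATA-like motif, where 26.5% of windows held a GC box, and Igf1 held neither. Guanine and cytosine made up 79.2% of the Igfbp3 window, 78.3% of Igfbp7, 72.5% of Igfbp4, 55.0% of Igfbp5 and 52.5% of Igf1, against a median of 54.2% over all windows. Of the 9 windows listed for the other 5 members, 0 held a TATA-like motif. A match is a description of letters and not a bound site.

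The neighbouring genes Igfbp2 and Igfbp5 lie 5590 bases apart on mouse chromosome 1 and had r = 0.032 (rho = -0.17; adjusted p = 0.907 by permutation) over the 22 tumours, a value that includes the high Igfbp2 of control Mouse_26 and was -0.13 without it and control Mouse_27. Igfbp3 and Igfbp1, 3539 bases apart on chromosome 11, had r = 0.29 with no test, and Igfbp1 lay at a mean of 5.07 log2 near the bottom of the range.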

How the data were processed

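RNA of 22 tumours was measured on Clariom S arrays. Tumour RNA was extracted with TRIzol and labelled, per the labels' protocols, with the GeneChip WT PLUS kit. Transcriptome Analysis Console 4.0 is listed in the submitters' processing notes. The deposited log2 values were used as given, with 2 decimals, from 3.34 to 19.49. Their base was read from that range, while background correction, summarization and normalization were not given in the sources used. Gene symbols came from the array's annotation, and 19572 probe sets carried 1 symbol. Each gene stands for the brightest, by mean, of its probe sets. Raw scans were not analysed here, so no level above background is known, and the number of arrays limits the precision.

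Means of the 4 regimens were fitted to all 22203 probe sets in R 4.3.3 with limma 3.58.1 (lmFit, eBayes, two-sided, Benjamini-Hochberg over all probe sets, called at an adjusted p under 0.05); any adjusted p of a comparison in the text is from this fit, unless its sentence names a tumour left out or a covariate. The comparisons share arrays. Shares of all probe sets with an unadjusted p under 0.05 are also from this fit. For fits with a covariate or without a tumour these shares are not given. Exact permutation tests enumerated all regroupings (smallest possible p 0.00217 to 0.00794). Correlations used Python 3.11.15, numpy 2.4.6 and scipy 1.17.1, with permutations within regimens. Both procedures were tested on simulated data. Every member was named. Of the partner list (18 of 23 genes measured) and the signal transduction list (38 of 46), up to 4 genes a comparison with the smallest unadjusted p under 0.05 were named. For each member the 3 named genes with the highest r were given, leaving out predicted genes and Riken clones. Genes without a probe set under their symbol were not analysed here. The members, lists and tests were chosen with earlier results of these data known. The labels give no batch, and nothing pairs the mice. Alternatives were quantile normalization, median centring, a trended robust fit, array weights, only the 2 regimens compared, leaving out the dimmest 25% of probe sets, the mean of a gene's probe sets, exact permutation, the fibroblast list as a covariate and leaving out each tumour.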

Additional observations from a re-analysis of the deposited data

Results flagged for a closer look

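A sample far from the rest of its regimen, by Dixon's gap criterion, was found in 5 of the 40 gene-by-regimen sets tested, and chance alone marks about 1 in 20. Igf1 was 17.72 log2 in obese Mouse_113, with the next obese tumour at 15.9. Igf1r was 8.45 in the same tumour, with the next at 7.07. Igfbp2 was 14.0 in control Mouse_26, with the next control at 6.63. Igfbp3 was 12.48 in formerly obese Mouse_140, with the next at 11.11. At the low end, Igfbp6 was 4.38 in formerly obese Mouse_146, with the next lowest at 4.63.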

How the results depend on the processing

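The count of members called was 0 for each of the 6 pairs under all 9 other settings and all 22 omissions of a tumour, and for the F test under the settings it was run with (it was not run by exact permutation or with only the 2 regimens compared), and the smallest adjusted p of a member in any of them was 0.524. At most 1 of all probe sets was called in any of these fits. No paired analysis was possible because the regimens share no replicate numbers. Of the 60 member differences 35 kept their sign under every setting run, among them all 10 of formerly obese minus obese. The trended robust fit, the fit of only the 2 regimens compared and exact permutation left every member difference as it was. So did leaving out the dimmest probe sets and taking the mean of a gene's probe sets. These settings could not change a sign, so the count rests on the other settings and on omissions of tumours of the regimens compared. None of the 60 had passed the test, and the cause of the sign changes was not tested. With quantile normalization the sign changed for obese sulindac minus obese, Igfbp7 -0.048; formerly obese minus control, Igfbp6 -0.0079. With median centring the sign changed for obese sulindac minus obese, Igfbp7 -0.0083; obese sulindac minus control, Igf1 -0.022. With array weights the sign changed for obese minus control, Igf2 -0.34; obese sulindac minus obese, Igf2 0.043; formerly obese minus control, Igfbp6 -0.044. With the fibroblast list as a covariate the sign changed for obese minus control, Igfbp7 -0.023, Igf2 -0.20, Igfbp3 -0.0028; obese sulindac minus obese, Igfbp7 -0.15; obese sulindac minus control, Igfbp5 -0.89, Igfbp7 -0.18, Igf1 -0.45, Igfbp4 -0.34, Igf2r 0.057; formerly obese minus obese sulindac, Igfbp5 0.76, Igf1 0.11, Igfbp4 0.14, Igfbp3 0.27. Leaving out single tumours changed the sign of further differences, the Igfbp2 ones among them large, given here as the lowest and highest value. For obese minus control these ranges were, in log2, Igfbp2 -1.35 to 0.26, Igf1r -0.10 to 0.35, Igf2 -0.29 to 0.80, Igfbp3 -0.073 to 0.36 and Igf2r -0.16 to 0.31. For obese sulindac minus obese these ranges were, in log2, Igfbp2 -0.24 to 0.057, Igfbp7 -0.10 to 0.10, Igf1r -0.23 to 0.27, Igf2 -0.50 to 0.28 and Igf2r -0.35 to 0.12. For formerly obese minus control these ranges were, in log2, Igfbp4 -0.85 to 0.091 and Igfbp6 -0.034 to 0.13. For obese sulindac minus control these ranges were, in log2, Igfbp2 -1.48 to 0.14, Igfbp5 -0.41 to 0.49, Igf1r -0.016 to 0.31, Igf2 -0.42 to 0.71, Igf1 -0.18 to 0.28 and Igf2r -0.17 to 0.087. The count of correlated pairs of members, 8, was 8 to 11 under every alternative. The pairs themselves changed: Spearman's rho added Igf1 with Igf2 and Igf2 with Igfbp6. Igfbp2 with Igfbp6 had r = -0.63 without control Mouse_26 and Mouse_27 (permutation p = 0.0067 before adjustment). Igfbp3 with Igfbp7 had r = 0.52 without obese Mouse_96 and formerly obese Mouse_140 (permutation p = 0.0154 before adjustment). The count of correlated pairs of members with marker lists, 3, was 12 with regimen means kept. It was 2 to 7 when single tumours were left out, with 5 without obese sulindac Mouse_X and 7 without formerly obese Mouse_134 or Mouse_140. With 5 or 6 arrays a regimen, limits to precision come from the spread between tumours, and the dim Igfbp6 probe set lies near the floor of the array.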

Other observations

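In control Mouse_26, the tumour with the high Igfbp2, 13 probe sets lay at least 3 log2 units above every other tumour, against 0 to 40 in the other tumours. The Igfbp2 gap of 6.78 log2 was the 5th widest of all 22203 probe sets. Predicted genes and Riken clones were left aside, and genes were chosen after their values were seen. The named genes with the widest gaps in that tumour were Rfx4 (15.81, next tumour 7.55), Igfbp2 (14.0, next 7.22), Ppp2r2b (11.31, next 5.72) and Zic2 (13.22, next 8.32), among them transcription factors of the nervous system. Its list of enteric neuron and glia markers averaged 5.55 log2, the highest of the control tumours, against 5.73 in the highest formerly obese tumour. Igf2 in control Mouse_32 was 13.16, with the next tumour of any regimen at 11.6. Igf2 and Ins2, 11839 bases apart on chromosome 7, had r = 0.12 over the 22 tumours with no test. Ins2 lay at a mean of 4.445 log2, near the bottom of the range.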
